A study of Mus musculus with 33 samples.

Results

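A576 of 18S ribosomal RNA (rRNA), listed by the authors as SSU-Am576, is 1 of 108 ribose-methylated sites in their overview table and 1 of 40 in 18S. It was selected on its low adult score: it stands in the overview under human position 576, and the deposited mouse sheets hold it at position 578. The series measured mouse rRNA by RiboMeth-seq in 33 libraries of whole-cell RNA from tissue, 3 for each of 11 groups. The groups were adult brain, heart, kidney, liver and lung, the same 5 tissues of E16.5 embryos, and whole head of E9.5 embryos, where E gives the day of gestation. The labels give no strain, sex, adult age, genotype or treatment. As whole tissues were extracted, a change in the make-up of cell types and a change within the cells cannot be told apart, and rRNA carries no marker genes with which to check the labelled tissues.

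Ribose methylation adds a methyl group to the 2'-hydroxyl of a nucleotide's sugar. In rRNA the methyltransferase fibrillarin places it, and a small nucleolar RNA (snoRNA) of the C/D box class pairs with the rRNA and picks the nucleotide. Many such sites are methylated in nearly every ribosome, whereas others are methylated in a part of them, so that a tissue holds ribosomes with and without the mark. The known guide of this site is SNORD93. The RefSeq mouse table (assembly GRCm38.p6) lists Snord93 at 45 nucleotides, overlapping the transcripts Gm42228 and 2700038G22Rik, with Tomm7 and Fam126a as the nearest coding genes on either side. The abundance of the guide was not measured in these libraries as analysed here.

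Alkali breaks RNA poorly next to a methylated ribose, so few fragments begin or end there. The score of a nucleotide is 1 minus its read ends over a weighted mean of the read ends at its 6 neighbours on each side, set to 0 where negative. A score of 1 stands for full methylation and 0 for no protection, and 1 minus the score is called the unmethylated share below. The nucleotides that enter the score of A576 are given first, in the letters of the deposited mouse 18S sequence at positions 572 to 584, with the scored adenosine in capitals. The same adenosine is then given in its 41-nucleotide surroundings at positions 558 to 598, where the second capital marks the next listed site, SSU-Am590, 14 nucleotides downstream. The third line is the window of LSU-Gm4593 in 28S, at positions 4270 to 4282, the only other site whose adult mean was lower by at least 0.1.
SSU-Am576 window: cuuuaaAuccuuu
SSU-Am576 context: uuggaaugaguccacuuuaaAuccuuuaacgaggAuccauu
LSU-Gm4593 window: gguucaGacauuu
The site is the third of 3 adenosines in a row. Its 12 neighbours are 7 uridines, 3 cytidines and 2 adenosines, and none of the 12 is itself a listed ribose-methylated site. Other rRNA modifications in the window, such as pseudouridines, were not looked up. The rRNA genes lie in repeated arrays, and neither a build nor genome coordinates are given in the sources used here.

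The label under which the site was picked calls the methylation lost in adult tissues. The scores showed a reduced level and no loss: adult libraries scored from 0.591 to 0.836 (median 0.719, 15 libraries) and E16.5 libraries from 0.863 to 0.974 (median 0.94, 15 libraries). E9.5 heads lay at 0.916 ± 0.0212 (SD, n = 3). Averaged over the 5 tissues, the unmethylated share was 29% in adults and 6.23% at E16.5, and it was 8.37% in E9.5 heads. Because the site was chosen for this difference, adult and E16.5 values are given as a description with no test.

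In the adult brain the 3 libraries scored 0.613, 0.745 and 0.808, against 0.863, 0.918 and 0.941 in E16.5 brain. The adult heart had the highest adult mean, with libraries at 0.783, 0.747 and 0.836, against 0.919, 0.967 and 0.967 in E16.5 heart. The groups did not overlap in either tissue, but the highest adult brain and heart libraries came within 0.1 of the lowest E16.5 library of their tissue. Adult kidney had the lowest mean of the 11 groups, with libraries at 0.591, 0.719 and 0.65, against 0.943, 0.923 and 0.962 in E16.5 kidney. Adult liver libraries scored 0.603, 0.698 and 0.791, against 0.968, 0.924 and 0.929 in E16.5 liver. In lung the adult libraries scored 0.596, 0.785 and 0.679, against 0.94, 0.928 and 0.974 at E16.5. In kidney, liver and lung every adult library again lay below every E16.5 library. The 3 E9.5 whole heads, at 0.895, 0.937 and 0.917, lay within the E16.5 range. Across tissues all 15 adult libraries lay below all 15 E16.5 libraries, with a gap of 0.027 between the highest adult library (the third of heart) and the lowest E16.5 library (the first of brain).

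**Figure D1:**
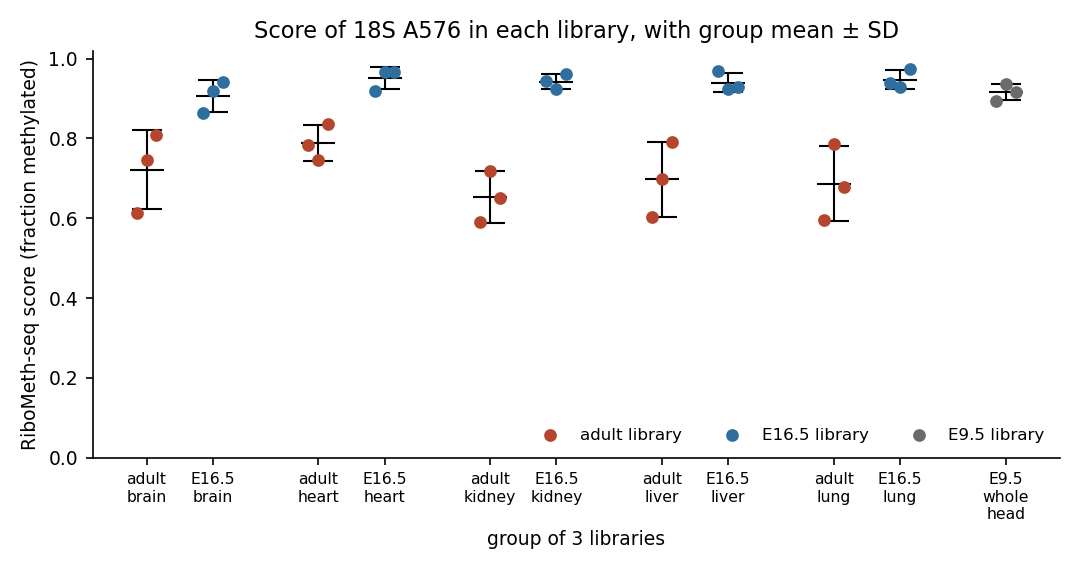
The vertical axis is the RiboMeth-seq score of 18S A576 and the horizontal axis the 11 groups, adult left of E16.5 in each tissue. Points are single libraries, and bars show the mean ± SD of the 3 libraries of a group. The adult points lie between 0.591 and 0.836 and the E16.5 points between 0.863 and 0.974.

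The same 15-against-15 separation held for 2 of the 107 sites with enough reads to test, or 1.87%, the other being LSU-Gm4593; the choice of the site fixes its place there, so nothing is read from it. Within single tissues, all 3 adult libraries lay below all 3 E16.5 libraries at 1.87% of the sites in brain and the same in heart, at 5.61% in kidney, and at 2.8% in liver and the same in lung. The adult minus E16.5 difference of A576 averaged -0.228 ± 0.0225 (SE) over the 5 tissues. It was -0.29 in kidney, -0.261 in lung, -0.243 in liver, -0.186 in brain and -0.162 in heart, each ± 0.0503 (SE). As a ratio of unmethylated shares, adult over E16.5, it was 6.07 in kidney, 5.96 in lung, 5.05 in liver, 4.29 in heart and 3 in brain. Brain and heart thus change places between the scales, E16.5 brain having an unmethylated share of 9.26%, against 4.92% in E16.5 heart.

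The spread between libraries was wider in adults, with a pooled SD within groups of 0.082, against 0.0279 at E16.5. The linear fit behind the SEs and tests takes 1 spread per site for all 11 groups. Its intervals are therefore too narrow among adult tissues and too wide among embryonic ones. Counting alone gave 95% intervals of a half-width between 0.0124 and 0.053 in adult libraries and between 0.00551 and 0.0486 at E16.5. They are exact Poisson intervals of the site's read ends, with the neighbour mean taken as fixed. They cover counting error at the site only, and amplified reads are not independent molecules. The first adult lung library, for instance, rests on 310 read ends at the site against a neighbour mean of 794, and its score of 0.596 has an interval of 0.548 to 0.64. The thinnest library of the series, the third of E16.5 lung, had 2 read ends at the site against a neighbour mean of 78, and its score of 0.974 has an interval of 0.905 to 0.997. Depth per library ran from 463388 to 35156406 read ends, with a median of 8896504. A wide spread is common at such intermediate levels: the 8 other sites with an adult mean within 0.1 of that of A576 had pooled adult SDs from 0.0508 to 0.322, with a median of 0.128.

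The spread of A576 among adult libraries went with the replicate number. The first library lay below its group's mean in 5 of 5 adult tissues and was the lowest of its group in 4. In brain and liver the scores of libraries 1, 2 and 3 kept the same order, and brain exceeded liver by only 0.01, 0.047 and 0.017 within a number. In lung and kidney libraries of the same number also kept their order, and lung exceeded kidney by 0.005, 0.066 and 0.029. Libraries of one number thus deviated together within these pairs of tissues. The 2 tissues of each pair also agree in whether the authors applied a barcode correction at 2 sites, SSU-Am1031 and SSU-Gm683, which were chosen after their values were seen and divide the 11 groups into 3 sets, 1 of them adult brain and liver alone. The number of sites corrected differs within sets, from 16 to 24 in the set of adult heart. Over all tested sites the deviations of same-numbered libraries correlated between 0.59 and 0.92 within a set, over 51 pairs, with a median of 0.79, and between -0.77 and 0.54 between sets, over 114 pairs, with a median of 0.00. What the sets stand for is not given in the sources used here.

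A tissue's adult libraries never fell in the set of its E16.5 libraries, so within a tissue stage and set cannot be told apart. Across tissues they can be compared within a set. In the set that holds adult kidney and lung with E16.5 brain and heart, the adult minus E16.5 difference within replicate numbers 1, 2 and 3 was -0.298, -0.191 and -0.289. In the set of adult heart with E16.5 kidney, liver and lung it was -0.167, -0.178 and -0.119. These differences set different tissues against each other, and their sign follows from how the site was chosen. The E16.5 brain and heart libraries of the first of these sets averaged 0.929, against 0.916 in the E9.5 heads, which belong to the same set. The authors had corrected the deposited mean of A576 in 0 of the 11 groups, and the deposited means equal those given here.

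The score pools 5' and 3' read ends, which give separate readings of the same breaks. Scores from 5' ends alone ran from 0.58 to 0.86 in adults and from 0.932 to 0.985 at E16.5. From 3' ends alone they ran from 0.416 to 0.81 in adults and from 0.812 to 0.979 at E16.5. With 3' ends the first E16.5 brain library, at 0.812, and the highest adult library, at 0.81, nearly touched. Adult and E16.5 libraries were apart in 5 of 5 tissues with either kind of end, which is tied to how the site was chosen. The share of all sites that separate this way was not counted for single kinds of end, so nothing is read from the separation. The 5' score exceeded the 3' score in 12 of 15 adult libraries, in 13 of 15 E16.5 libraries and in 3 of 3 E9.5 heads, by 0.0791 on average in adults, 0.0374 at E16.5 and 0.0596 at E9.5.

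The readings differed most in adult brain, where 5' ends gave 0.778, 0.816 and 0.855 and 3' ends gave 0.416, 0.635 and 0.731. Adult liver showed the same, with 0.718, 0.769 and 0.793 from 5' ends and 0.462, 0.597 and 0.788 from 3' ends. The first libraries of these tissues thus stood farther below the others in 3' than in 5' ends. In the third libraries of adult kidney and lung the order was turned, with 5' scores of 0.58 and 0.607 and 3' scores of 0.756 and 0.777. In brain the adult minus E16.5 difference was -0.12 ± 0.0384 from 5' ends and -0.294 ± 0.0828 from 3' ends (SE). In kidney it was -0.3 from 5' ends and -0.284 from 3' ends. Liver had -0.202 from 5' ends and -0.307 from 3' ends, and lung -0.282 from 5' ends and -0.237 from 3' ends. Heart had -0.156 from 5' ends and -0.146 from 3' ends, the latter with a 95% interval (-0.317 to 0.0243) that included 0. As the site was chosen for its low adult score, none of these differences carries a test. Over the 5 tissues the mean difference was -0.212 ± 0.0172 from 5' ends and -0.254 ± 0.037 from 3' ends.

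**Figure D2:**
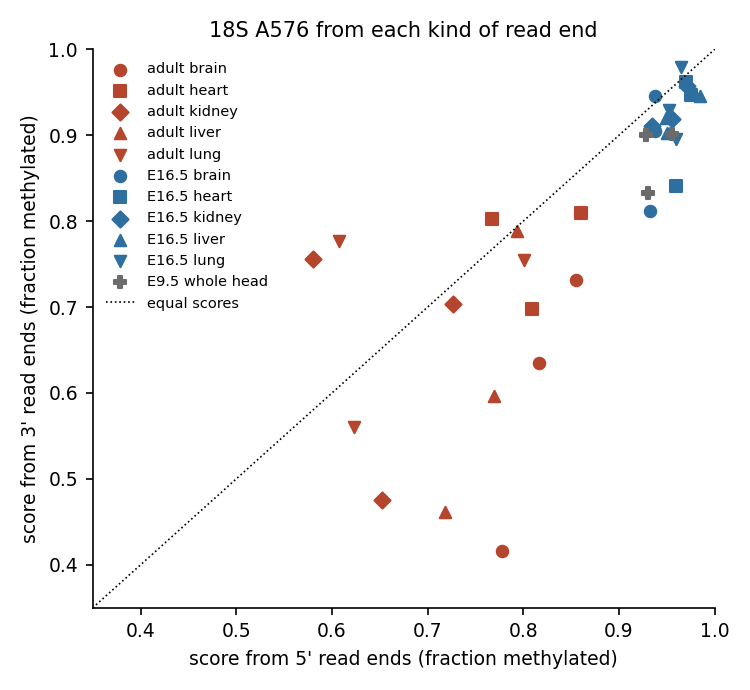
Each point is 1 library, with the score of 18S A576 from 5' read ends on the horizontal axis and from 3' read ends on the vertical axis; colour gives the stage, shape the tissue, and the dotted line marks equal scores. Adult 5' scores lie between 0.58 and 0.86 and adult 3' scores between 0.416 and 0.81, below and to the left of all E16.5 points.

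The window was also read nucleotide by nucleotide. Of the read ends in the 13-nucleotide window, A576 held 2.26% in adults (1.29% to 3.2% over libraries) and 0.5% at E16.5 (0.213% to 1.07%), a ratio of 4.52; in E9.5 heads it held 0.664%. The shares of the 12 neighbours had ratios of adult over E16.5 between 0.812 and 1.25. At none of the 12 were the 15 adult and the 15 E16.5 libraries apart. The cytidine 6 nucleotides upstream held the largest adult share, at 15.8% in adults and 12.7% at E16.5. The uridine 3 nucleotides upstream held 12.6% in adults and 15.1% at E16.5.

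The 3 adenosines in a row differ from each other. The first, at mouse position 576, scored 0.0795 in adults and 0.0636 at E16.5, and the second, at 577, scored 0.162 in adults and 0.235 at E16.5. The third, the listed site at 578, scored 0.71 in adults and 0.938 at E16.5. The highest stage mean among the 12 neighbours was that of the uridine 4 nucleotides upstream, at 0.391 in adults and 0.471 at E16.5. Single libraries ran higher there, up to 0.576 in adults and 0.701 at E16.5, and the adenosine directly upstream of A576 reached 0.412 in an adult library and 0.569 in an E16.5 library.

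**Figure D3:**
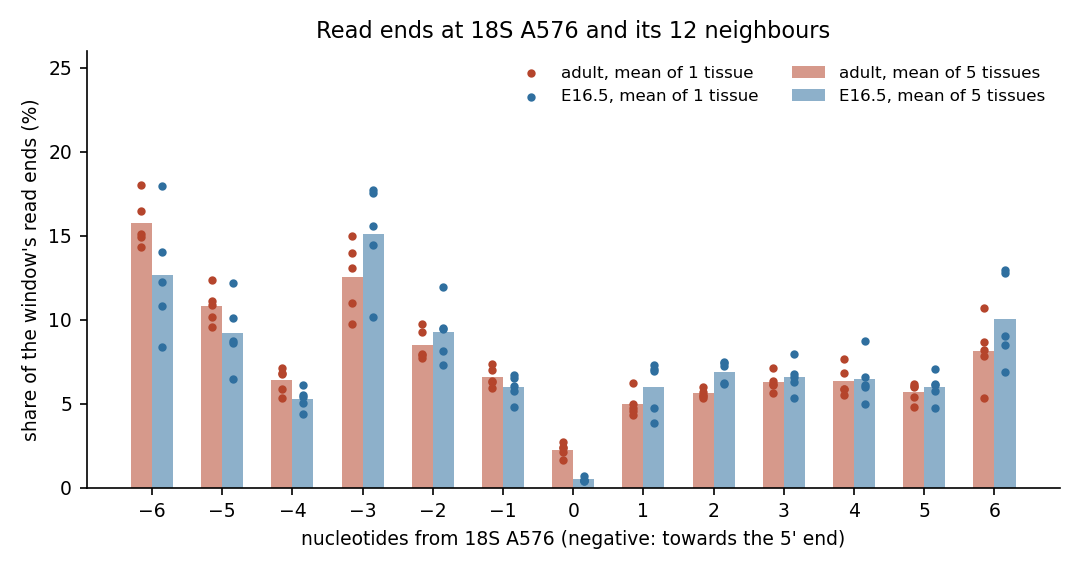
Bars show the mean share, in percent, of the window's read ends at 18S A576 (0) and at each of its 12 neighbours, over 5 adult and 5 E16.5 tissues, and points show the mean of each tissue. At A576 the share is 2.26% in adults and 0.5% at E16.5, while at the neighbours the ratio of adult over E16.5 stays between 0.812 and 1.25.

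Along the head and brain series the score of A576 was 0.916 ± 0.0212 in E9.5 whole head, 0.907 ± 0.04 in E16.5 brain and 0.722 ± 0.0991 in adult brain (SD, n = 3 each). The step between the embryonic stages was not itself what picked the site, so that step was tested. A site chosen as low in adults against embryos nonetheless tends to be high at both embryonic stages. A small difference between them is thus partly favoured by the choice. E16.5 brain minus E9.5 head was -0.00888 (95% interval -0.112 to 0.0947; adjusted p = 0.99, limma with Benjamini-Hochberg adjustment over 107 sites). In that comparison 9 sites, or 8.41%, were called, 7 higher and 2 lower in E16.5 brain, and A576 was not among them; at an unadjusted p below 0.05 there were 22. With same-numbered libraries of a set treated as a random block the interval narrowed to -0.0761 to 0.0583, the adjusted p from limma was 0.921, and 23 sites were called. Within replicate numbers 1, 2 and 3 the difference was -0.032, -0.019 and 0.024. With only these groups in the fit, the SE of the difference was 0.0264, against 0.0503, and the adjusted p from limma was 0.887. A whole head holds more than brain, so stage and tissue differ together in this step. Adult brain minus E9.5 head was -0.194 ± 0.0503 (SE), given without a test.

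Among the 5 E16.5 tissues the group means of A576 lay between 0.907 in brain and 0.951 in heart, a range of 0.0433. As the site was chosen as low in adults against embryos, a small range among E16.5 tissues is partly favoured by the choice. Limma's F test over these tissues gave an adjusted p of 0.939 for A576, while it called 18 of the 107 sites, or 16.8% (31 sites with the random block within sets). With the E16.5 groups alone in the fit, the adjusted p of A576 from limma's F test was 0.672. In rising order brain was followed by liver at 0.94, kidney at 0.943, lung at 0.947 and heart. The 95% interval of each of the 10 differences between E16.5 tissues included 0, with and without the random block. Brain minus heart, which share a set, was -0.056, -0.049 and -0.026 within replicate numbers, the same sign in 3 of 3, with an interval of -0.111 to 0.0239 under the block.

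Among the 5 adult tissues the means ran, in rising order, from kidney (0.653 ± 0.064) through lung (0.686 ± 0.0945), liver (0.698 ± 0.0937) and brain (0.722 ± 0.0991) to heart (0.789 ± 0.0449; SD, n = 3 each). The 95% interval of each difference between neighbours in this order included 0, with and without the random block, although lung exceeded kidney and brain exceeded liver within each replicate number. The ends of the order, heart and kidney, differed by 0.135 (95% interval 0.032 to 0.239, not adjusted for the 10 pairs). This interval is too narrow, as the spread shared by all 11 groups is smaller than that of adult libraries. Heart minus lung was 0.102, with an interval of -0.0011 to 0.206, and of 0.00656 to 0.198 under the block. Adult heart was the only adult tissue in its library set, so tissue and set cannot be told apart in either difference. The F test over the 5 tissues, with a range of 0.135, gave an adjusted p of 0.482 (limma), and 5 of the 107 sites, or 4.67%, were called (8 with the random block within sets, where the adjusted p was 0.474). With the adult groups alone in the fit, the adjusted p from limma's F test was 0.683. A site chosen as low in adult tissues tends to be lower in all of them, so like differences over tissues are partly favoured by the choice. The adult minus E16.5 difference varied over tissues by a range of 0.128, with an adjusted p of 0.617 (limma) and 14 sites, or 13.1%, called.

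Both of these results changed with 5' ends alone. Adult scores from 5' ends averaged 0.817 in brain, 0.812 in heart, 0.76 in liver, 0.677 in lung and 0.653 in kidney. Their range of 0.164 had an adjusted p of 0.00633 in limma's F test, in which 10 sites, or 9.35%, were called. The SDs of the 5' scores ran from 0.0381 (liver) to 0.107 (lung) in adult groups. At E16.5 they ran from 0.00314 (brain) to 0.0206 (liver). The spread shared by all 11 groups is thus too small for adult tissues, and this adjusted p is too low. A fit of the adult groups alone was not run for 5' ends. The adult minus E16.5 difference from 5' ends varied by a range of 0.181 with an adjusted p of 0.0446 (limma), and 22 sites, or 20.6%, were called. With the random block within sets, the adjusted p from limma was 0.00512 among adult tissues and 0.0588 for the variation of the difference. The correlation within blocks was 0.0883 for 5' ends, against 0.509 for the pooled score, so the block weighed little here. The lowest adult tissues in this reading, kidney and lung, form the adult part of 1 library set, so tissue and set cannot be told apart here. From 3' ends the order was different, with heart at 0.77, lung at 0.697, kidney at 0.645, liver at 0.616 and brain at 0.594.

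Set against the rest of the rRNA, A576 went against the prevailing direction. Of the 107 sites, 99 had a higher and 8 a lower mean score in adults than at E16.5, with a median difference of 0.0324. Only 2 of the 107 were lower by at least 0.1 in adults: LSU-Gm4593, at 0.0795 in adults and 0.521 at E16.5, and A576. The site next in order, LSU-Gm4607, was at 0.78 in adults and 0.831 at E16.5. In 18S, 38 of 40 sites had higher and 2 lower means in adults, and the other lower one, SSU-Am159, differed by -0.00245. Among 33 adenosine sites the median difference was 0.028, and A576 was the only one lower by at least 0.1. Of the 59 sites with an E16.5 mean of at least 0.9, A576 was likewise the only one lower by at least 0.1, and the lowest adult mean among the other sites was 0.931, at SSU-Um1288. The place of A576 in these counts follows from how the site was chosen, and the counts are given as its setting. The median score over the tested sites ran from 0.928 to 0.972 in adult libraries and from 0.857 to 0.953 in E16.5 libraries. Whether the higher adult scores come from a shift of whole libraries was not tested. Within a tissue, stage and library set cannot be told apart.

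**Figure D4:**
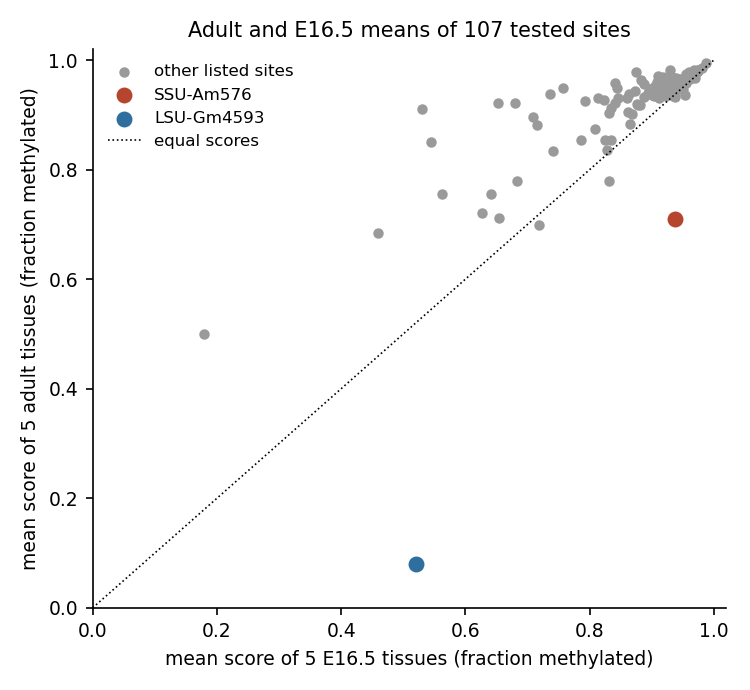
Each point is 1 of the 107 tested sites, with its mean score over 5 E16.5 tissues on the horizontal axis and over 5 adult tissues on the vertical axis; the dotted line marks equal scores. SSU-Am576 (0.71 in adults, 0.938 at E16.5) and LSU-Gm4593 (0.0795 in adults, 0.521 at E16.5) lie farthest below the line.

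The listed 18S sites nearest to A576 did not share its direction. SSU-Am590, 14 nucleotides downstream, averaged 0.959 in adult tissues and 0.841 in E16.5 tissues, a difference of 0.118, and 0.751 in E9.5 heads; its E16.5 group means ran from 0.604 to 0.947. SSU-Gm601, 25 nucleotides downstream, averaged 0.974 in adults and 0.955 at E16.5. Upstream, SSU-Cm517 averaged 0.951 in adults and 0.938 at E16.5, and SSU-Am512 averaged 0.965 in adults and 0.945 at E16.5. Thus within a stretch of 18S where these 4 sites were at 0.951 or more in adults, A576 was at 0.71.

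Among the 63 sites whose group means spanned at least 0.1, LSU-Gm4593 was most like A576 over the 11 groups (Pearson r = 0.86, as a description). That likeness lies between stages: within the 5 adult groups r was -0.52 and within the 5 E16.5 groups 0.32. Adult kidney, the lowest adult tissue at A576, was the highest at LSU-Gm4593, with a mean of 0.217, against 0.114 in lung, 0.0664 in heart and 0 in brain and liver. Negative scores are set to 0, so brain and liver cannot be ordered there and the adult r rests partly on cut values. Adult kidney and lung share a library set, so tissue and set cannot be told apart in this order. The sites next in likeness were LSU-Gm4607 (r = 0.27), LSU-Um3904 (0.09), LSU-Cm2848 (0.09) and SSU-Gm683 (-0.08). Only 4 of the 63 had a positive r, and the median was -0.57. The least like were 5.8S-Um14 (-0.90), SSU-Um1804 (-0.84) and LSU-Gm1303 (-0.84), whose adult means were 0.921, 0.978 and 0.931 and whose E16.5 means were 0.68, 0.875 and 0.846. The 11 points share tissues, stages and library sets, so these values carry no test.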

How the data were processed

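The authors deposited, per the file headers, counts of 5' and of 3' read ends at every rRNA nucleotide in each library, and a fraction methylated (the RiboMeth-seq score). Per the labels' protocols, RNA was partly hydrolysed with alkali, fragments were ligated to linkers with a modified Arabidopsis tRNA ligase, and libraries were read on an Ion Proton. Bowtie2 2.3.4.1 and cutadapt 2.0 appear in the submitters' processing notes, without settings; which rRNA sequence was aligned to is not stated there. The authors' overview table of mean scores, which holds a barcode-corrected score at 107 of 1188 group means per the file headers and a comparison with the library values, named the 108 listed sites.

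The score was rebuilt from the counts and differed from the deposited fraction by at most 5.0e-10. All 11 sheets carry the column names of adult lung, so the group was taken from the sheet's name and the replicate number from the ending of the header; the group was checked against the overview means, and replicates could not be checked in this way. Replicate libraries differed by more than sampling noise (chi-square per degree of freedom of 48.7 to 506).

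The uncorrected score of the 107 sites with a mean of at least 10 read ends over the neighbours in every library was fitted in limma 3.58.1 (R 4.3.3), with 1 mean per group, a variance trend, moderated t or F statistics and Benjamini-Hochberg adjustment; sites with an adjusted p below 0.05 were called. The p-values measure the spread between the libraries of a group, which the series' design text calls biological replicates. That spread was taken as 1 value per site over all 11 groups. The fit was tested on simulated data with independent libraries and the same spread of a site in every group. Of 20 sites changed by 0.1 in 1 group, it recovered 9 for E16.5 brain minus E9.5 head and 4 among adult tissues. At a change of 0.2 it recovered 16 and 13, with 0 and 1 false calls. Changes of these sizes can thus go uncalled. In the real data A576 had pooled SDs of 0.082 in adults and 0.0279 at E16.5. The simulated counts for adult tissues may therefore not hold for A576. The site and the lists (18S, adenosines, sites at 0.9 or more at E16.5) were chosen with earlier results of these data known; named sites were the 2 nearest listed 18S sites on each side, the 5 most and 3 least alike over groups among those with a span of at least 0.1, and those lower in adults by at least 0.1. LSU-Gm4607, SSU-Am159 and SSU-Um1288 were named after their values were seen. The overview gives no guides, so sites with the same guide were not looked up.

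The deviations of same-numbered libraries from their group means correlated between 0.66 and 0.81 for E16.5 brain and E9.5 head, which pairs them, and in all 51 pairs within library sets, but not for adult and E16.5 libraries of 1 tissue. The replicate number was therefore used as a block in alternatives, as a fixed term and as a random term within library set (limma's duplicateCorrelation). The random term was added after seeing the data, with a correlation of 0.509 for the pooled score and 0.0883 for 5' ends. Other alternatives changed the read ends, window, weights, depth, scaling, filter, scale and samples of the fit, or left out each library.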

Additional observations from a re-analysis of the deposited data

How the results depend on the processing

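The adult minus E16.5 difference of A576 kept its direction under every alternative run, in the mean of the tissues (-0.279 to -0.206) and in each tissue. It moved by more than the pooled SD between libraries of a group (0.0589) in these cases. From 5' ends alone, with or without the random block, it was -0.12 in brain and -0.121 for adult brain against E9.5 head. From 3' ends it was -0.294 in brain, -0.307 in liver and -0.284 for adult brain against E9.5 head. After thinning to the shallowest library it was -0.158 in liver, with 2 neighbours on each side -0.325 in liver, and with the median of the neighbours -0.35 in kidney and -0.32 in lung. The cause of these shifts was not tested.

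From 5' ends the ranges of 0.164 among adult tissues and 0.181 in the adult minus E16.5 difference were called. The random block within sets, with a correlation of only 0.0883 for 5' ends, kept the first call and not the second. That block still takes 1 spread for all 11 groups, which is too small for adult tissues. The adult groups alone were not fitted with 5' ends. No other alternative made a call for A576 among adult tissues, for the variation of the difference or among E16.5 tissues. E16.5 brain minus E9.5 head ran from -0.0397 to 0.0187 and was never called. The replicate block as a fixed term left it at -0.00888 and changed no call at A576. Over all sites, the number called in E16.5 brain against E9.5 head was 9, with 23 under the random block within sets, 26 from 5' ends, 29 with both, 3 from 3' ends and 0 in a model of the 6 libraries with a replicate block (37 at an unadjusted p below 0.05). The number among adult tissues ran from 0 with 3' ends (7 at an unadjusted p below 0.05) to 14, among E16.5 tissues from 6 to 37, and for the variation of the difference from 4 to 22. Without adult liver library 1 or 2 the last of these was 8 or 9, and among adult tissues it was 2 without adult kidney library 1 and 3 without adult kidney library 3, adult brain library 1 or 3, or adult lung library 2.

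Depth limits the E16.5 scores of liver and lung most, where a library had as few as 2 read ends at the site.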
